A study of Thermothelomyces thermophilus ATCC 42464 with 4 samples.

Results

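In *Myceliophthora thermophila*, a thermophilic fungus that grows on plant cell walls, 70 of the 8716 genes in the deposited table stood at least 4-fold higher in the libraries labelled ΔMtTrh-1 than in MtWT and were selected on this measured difference. A gene was a member when its mean over both libraries labelled ΔMtTrh-1 was at least 10 FPKM and its log2 difference from MtWT, taken between strain means after adding 1 FPKM, was at least 2. FPKM are fragments per length of gene and per mapped fragments of the library, so levels of different genes can be set beside each other per length. These thresholds were met by 81 genes, 0.929% of the table, and the rule leaves out 11 of them by name. The 11 include transporters, alcohol dehydrogenases, a mercuric reductase, a chloroperoxidase, an endoglucanase and a transferase. Also among them are a gene with a phosphopantetheine site, a gene of unknown function and *Mycth_90344*, taken below to be the targeted gene. Gene models that are not in the reference gene set were not eligible. Because the same difference chose the members, their values below are a description, with no test.

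All 4 libraries were made from total RNA of mycelium of ATCC 42464, 2 per strain. MtWT is the wild type, and in the other strain the label gives a deletion of MtTrh-1. In the study's methods, the deletion was made in the MtWT background with CRISPR-Cas9 and a donor that puts a neomycin resistance cassette (P*trpC-neo*) at the locus. The paper cites a different series for its RNA-seq, so that this construction holds for the libraries at hand is an inference. Both strains were pregrown for 16 h at 45 °C in 2% glucose, washed, and moved to 2% Avicel, a crystalline cellulose, for 4 h, and growth on glucose alone was not measured. The study's methods describe independent biological replicates, in triplicate, for its RNA-seq. The labels of the libraries at hand, a pair per strain, do not name their cultures, so spread between them may be technical. MtTrh-1 was taken to be *Mycth_90344*, the C2H2 zinc finger gene that the paper names *Mttrc-1*, which is an inference. *Mycth_90344* had 215.45 and 223.41 FPKM in the libraries labelled ΔMtTrh-1 and 13.29 and 14.47 FPKM in MtWT, so the targeted gene went against the label. The series title names cellulase genes and Hac-1 as regulated by MtTrh-1. In the libraries labelled ΔMtTrh-1, *Mycth_2310995* (*Mthac-1*) was called lower by limma (log2 difference -1.52), a call made for 4.96% of the genes tested. Of 27 described CAZyme genes, 14 were called lower and 2 higher. Every direction given here is that of the labels.

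Filamentous fungi take up Avicel only after secreted cellulases have cut it to soluble sugars, and the switch from glucose to cellulose changes the transcript levels of many genes for secretion, uptake and metabolism. Genes of a fungal biosynthetic route often lie side by side on a chromosome and change together. Enzymes that build polyketides, fatty acids or peptides hold the growing product on a phosphopantetheine arm, which is carried by a small attachment domain. For this reason the members are described first by what their products are known to do, then by level, and then by their order on the chromosomes.

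Only 8 of the 70 members had a description line at hand, since the study's annotation table was held in part, and 4 of these lines read hypothetical protein. For the other 62 no name or role is given here. The identifiers are those of the table, written *Mycth_* in place of its capitals. Among the 4 members with a described product, *Mycth_111030* is a carbonic anhydrase, of the enzymes that interconvert CO2 and bicarbonate. It had 67.36 and 69.42 FPKM in the libraries labelled ΔMtTrh-1 and was listed at 0 in both MtWT libraries. *Mycth_2081249* carries the ATP-binding domain of helicases of superfamilies 1 and 2, motor proteins that move along or unwind nucleic acids. It had 427.71 and 431.22 FPKM against 68.05 and 68.25 FPKM in MtWT, a log2 difference of 2.64. The libraries of each strain lay within a few FPKM of each other for this gene.

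*Mycth_2069839* belongs to the metal-dependent phosphohydrolases with an HD region, named after the histidine and aspartate residues that bind the metal. It had 57.31 and 56.15 FPKM in the libraries labelled ΔMtTrh-1 and 7.04 and 6.10 FPKM in MtWT (log2 difference 2.93). *Mycth_110792* is a Yippee-like protein, of a zinc-binding family found from fungi to animals. It had 67.41 and 63.46 FPKM against 13.54 and 14.99 FPKM in MtWT (log2 difference 2.12), near the low end of the members. The 4 members described as hypothetical proteins were *Mycth_2061639*, *Mycth_2111801*, *Mycth_2085772* and *Mycth_108781*, with log2 differences of 2.72, 2.62, 2.53 and 2.26. In all 8 genes both libraries labelled ΔMtTrh-1 were above both MtWT libraries, which also held for 43.8% of all genes tested. Nothing is read from this, since the rule used the same contrast.

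Over the 66 members above 0 in all 4 libraries the log2 difference ranged from 2.01 to 5.66, with a median of 2.75. It was from 2 to under 3 for 38 of them, from 3 to under 4 for 18, and 4 or more for 10. The other 4 members were listed at 0 in both MtWT libraries, so their difference depends on the added 1 FPKM and is not given. With these counted at that difference, the median over all 70 was 2.84, beside a median of 0.03 over the 7525 genes tested. In 69 of the 70, both libraries labelled ΔMtTrh-1 were above both MtWT libraries, which also held for 43.8% of all genes tested. The same 69 were called higher by limma (adjusted p under 0.05 and log2 fold change above 1), a call made for 5.3% of the genes tested. Nothing is read from either count, since the rule used the same contrast. Added to each value, 1 FPKM shrinks the difference of low genes. With 10 FPKM added in its place, 42 of the 70 kept a 4-fold difference and the members' median was 2.11.

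**Figure D1:**
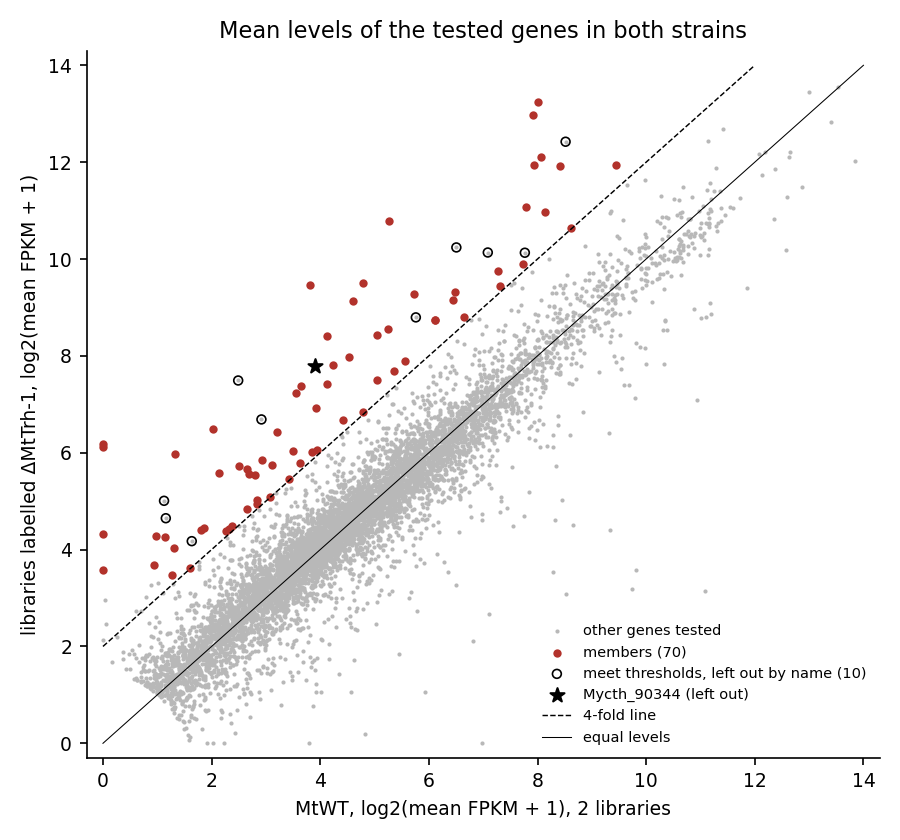
Mean level of each tested gene in MtWT (x axis) and in the libraries labelled ΔMtTrh-1 (y axis), both as log2(mean FPKM + 1) over 2 libraries. Red points are the 70 members, open circles are 10 genes that meet the thresholds and were left out by name, the star is *Mycth_90344*, the solid line marks equal levels and the dashed line a 4-fold difference. The members reach from the left edge, where 4 are listed at 0 in MtWT, to a MtWT mean of 692 FPKM.

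The libraries of a strain were close for these genes. Between the libraries labelled ΔMtTrh-1 the median log2 difference of the members was 0.07 in size, and 66 of 70 differed by under 0.2. Between the MtWT libraries the median was 0.08, with 57 of 70 under 0.2. Over all genes tested these medians were 0.07 and 0.08. The sets were not matched for level. In the libraries labelled ΔMtTrh-1 the median mean was 108 FPKM for members and 19.4 FPKM for genes tested. In MtWT it was 13.2 and 18.6 FPKM. The widest pair was in *Mycth_2309423*, which was listed at 0 in replicate 1 labelled ΔMtTrh-1, at 21.85 FPKM in replicate 2, and at 0 in both MtWT libraries. It is the 1 member whose strains overlapped, and it rests on a single library. Without that library its difference is 0. The next widest was *Mycth_2305028*, with 16.47 and 20.58 FPKM against 0.46 and 1.48 FPKM in MtWT.

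**Figure D2:**
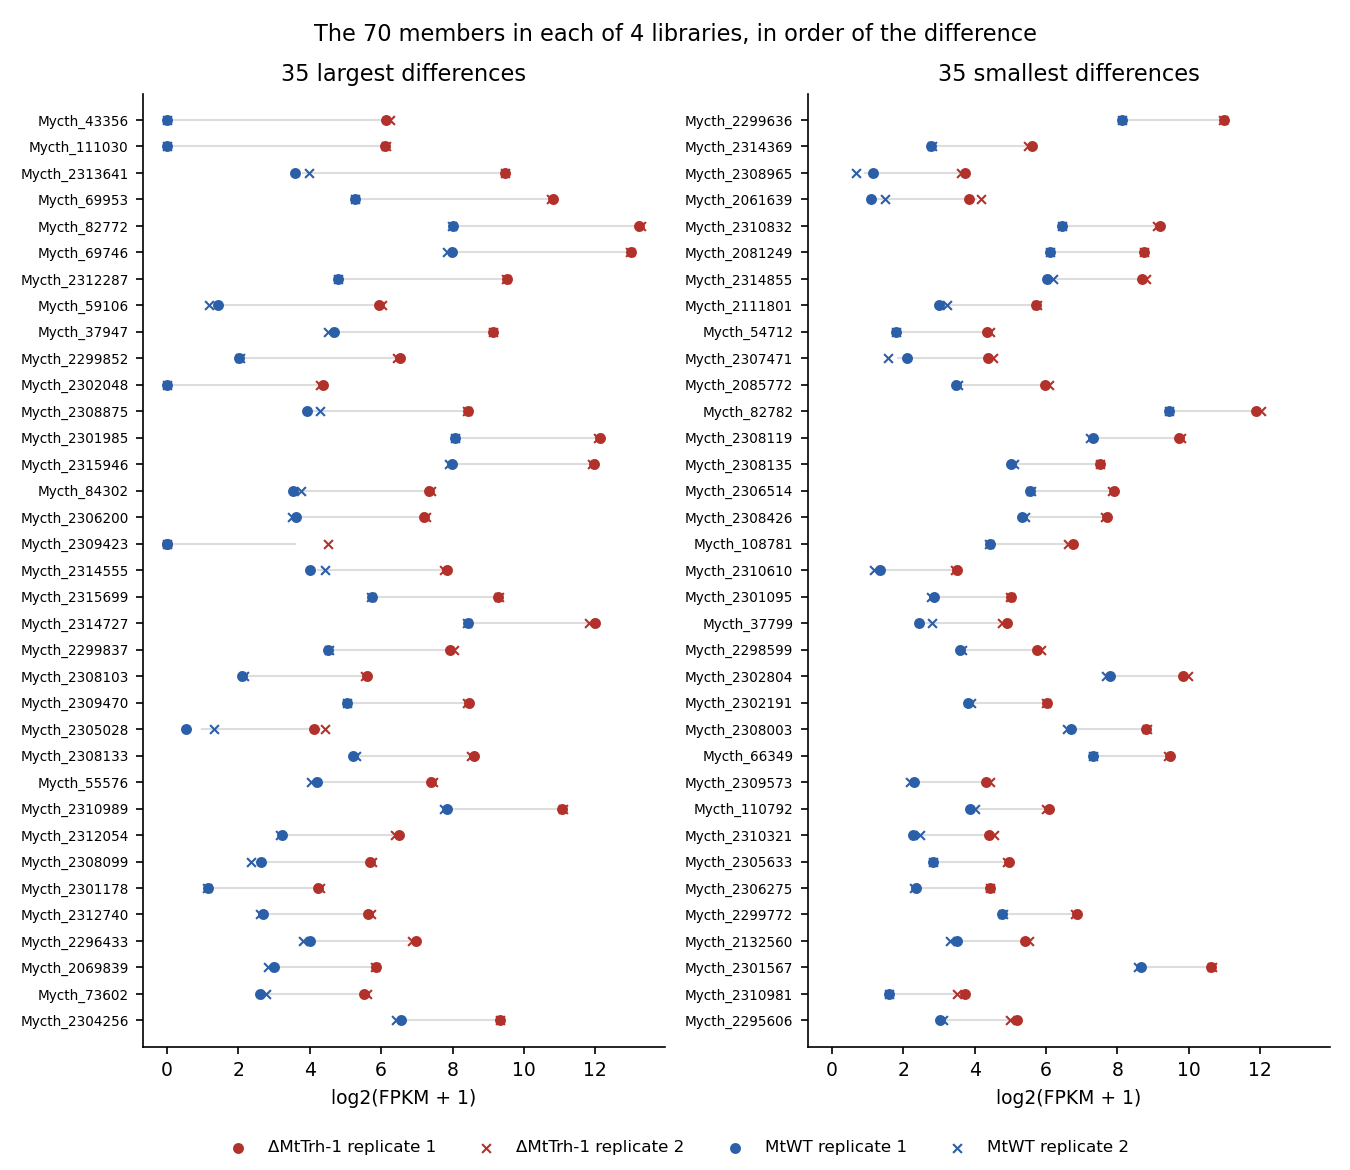
Level of the 70 members in each of the 4 libraries as log2(FPKM + 1), sorted by the difference of strain means from the largest (top left) to the smallest (bottom right), with grey lines joining the means. Red marks are the libraries labelled ΔMtTrh-1 and blue marks are MtWT, dots replicate 1 and crosses replicate 2. The colours overlap in *Mycth_2309423* alone, where the red dot lies at 0 under the blue marks.

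The members fall into different levels in MtWT, from not detected to well expressed. The 6 lowest had a MtWT mean under 1 FPKM, and 4 of these were listed at 0 in both MtWT libraries. Apart from *Mycth_111030* and *Mycth_2309423*, these were *Mycth_43356*, with 68.92 and 75.09 FPKM in the libraries labelled ΔMtTrh-1, and *Mycth_2302048*, with 19.53 and 18.63 FPKM. A value of exactly 0 can stand for a failed estimate as well as for no reads, and no fold is given for these 4. In the whole table, 4 genes were at 0 in both MtWT libraries and at 10 FPKM or more on average in the libraries labelled ΔMtTrh-1, and 2 genes showed the opposite.

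A further 24 members had a MtWT mean from 1 to under 10 FPKM, with a median log2 difference of 2.61 and means of 10.1 to 88.5 FPKM in the libraries labelled ΔMtTrh-1. The widest difference here was that of *Mycth_59106*, with 60.05 and 63.95 FPKM against 1.71 and 1.28 FPKM in MtWT (log2 difference 4.66). *Mycth_2299852* followed, with 91.42 and 85.48 FPKM against 3.04 and 3.13 FPKM (4.45). In the libraries labelled ΔMtTrh-1 the members of this class lay at ranks 1132 to 5187 by FPKM.

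In the largest class, 28 members had a MtWT mean from 10 to under 100 FPKM, with a median log2 difference of 2.92. *Mycth_2313641* had 713.89 and 701.38 FPKM against 11.11 and 14.85 FPKM in MtWT (log2 difference 5.66). *Mycth_69953* had 1795.69 and 1742.06 FPKM against 37.20 and 37.42 FPKM (5.53). These differences were the widest among members that were above 0 in every library.

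*Mycth_2312287* had 733.01 and 727.87 FPKM against 26.46 and 26.51 FPKM in MtWT, a log2 difference of 4.73. *Mycth_37947* had 561.59 and 558.06 FPKM against 24.75 and 21.88 FPKM (4.53). By FPKM, *Mycth_2313641*, *Mycth_69953*, *Mycth_2312287* and *Mycth_37947* lay at ranks 2402 to 4865 in MtWT and 63 to 270 in the libraries labelled ΔMtTrh-1.

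The 12 members with a MtWT mean of 100 FPKM or more were well expressed in both strains, and their median log2 difference was 3.06. They hold 9 of the 10 members that reached 1000 FPKM in the libraries labelled ΔMtTrh-1, the tenth being *Mycth_69953*. Highest of all was *Mycth_82772*, with 9521.54 and 9963.06 FPKM against 258.85 and 254.58 FPKM in MtWT (log2 difference 5.24). *Mycth_69746* had 8156.09 and 7987.76 FPKM against 251.70 and 230.09 FPKM (5.06). Ranked by FPKM, *Mycth_82772* was gene 3 and *Mycth_69746* gene 4 in both libraries labelled ΔMtTrh-1, whereas in MtWT they lay at ranks 468 to 507.

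*Mycth_2301985* had 4443.34 and 4341.24 FPKM against 268.55 and 266.27 FPKM in MtWT (log2 difference 4.03). *Mycth_82782*, the member highest in MtWT, had 3748.25 and 4165.76 FPKM against 689.05 and 695.75 FPKM (2.51). *Mycth_2315946* had 3967.02 and 3870.13 FPKM against 250.11 and 238.87 FPKM (4.00). These 5 genes, *Mycth_82772* and *Mycth_69746* included, made up 55.9% and 56.7% of the FPKM of all members in the libraries labelled ΔMtTrh-1, and 37.6% in each MtWT library.

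Also high in MtWT were *Mycth_2314727*, with 343.51 and 338.44 FPKM there and 4070.16 and 3625.30 FPKM in the libraries labelled ΔMtTrh-1 (log2 difference 3.49), and *Mycth_2299636*, with 279.81 and 280.85 FPKM there and 2033.42 and 1980.40 FPKM in the other libraries (2.84). *Mycth_2301567* was near the threshold, with 1587.25 and 1604.69 FPKM against 400.10 and 377.93 FPKM in MtWT (2.03). A high level in MtWT thus went with both wide and narrow differences.

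Together the 70 members took 7.32% and 7.37% of the FPKM in the libraries labelled ΔMtTrh-1, and 0.616% and 0.608% in MtWT. Without the 5 highest members the shares were 3.23% and 3.19% against 0.384% and 0.379%. *Mycth_82772* and *Mycth_69746* alone took 2.42% and 2.47% against 0.069% and 0.066%. Among the 100 highest genes of a library, 10 were members in each library labelled ΔMtTrh-1, and none was in either MtWT library. FPKM sums were 725984 to 741923 in the 4 libraries, so these shares were taken from like totals, and their read depth is unknown. In bulk RNA, a change in the mix of cells and a change in RNA per cell cannot be told apart.

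At the fold threshold, the members just inside were *Mycth_2301567* (log2 difference 2.03), *Mycth_2310981* (2.02) and *Mycth_2295606* (2.01). Just outside were *Mycth_2300786* (1.99), *Mycth_2132770* (1.98) and *Mycth_60509* (1.98). *Mycth_2295606* had 35.12 and 30.51 FPKM against 7.20 and 7.59 FPKM in MtWT, and *Mycth_2300786* had 83.70 and 79.34 FPKM against 20.43 and 19.21 FPKM. The libraries of a strain differ by more than the steps between these genes, so the edge of the set is not sharp. At the level threshold, *Mycth_2310610* (mean 10.1 FPKM in the libraries labelled ΔMtTrh-1), *Mycth_2309423* (10.9) and *Mycth_2310981* (11.3) were just inside. *Mycth_2307949* (8.95 FPKM), *Mycth_2297182* (8.70) and *Mycth_2057467* (7.06) were just outside.

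Position on the chromosomes was not part of the rule. All 70 members were found in the RefSeq gene table of assembly ASM22609v1, used only for the order of genes, because the build behind the FPKM is not given in the sources used here. A place is the step from a gene to the next entry of that table. Directly next to another member lay 6 of the 70 (8.57%), beside 123 of 8611 other placed genes that lay next to a member (1.43%). Within 3 places of another member lay 11 (15.7%, beside 4.08% of other genes), and within 10 places 21 (30.0%, beside 12.3%). Most members thus lay apart from each other, and these shares were not tested. The stretches described next were chosen after their values were seen.

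On chromosome 4, 5 genes in a row met the thresholds. They were *Mycth_82782*, then *Mycth_11658*, described as a transferase, and *Mycth_108317*, with an attachment site for phosphopantetheine, then *Mycth_69746* and *Mycth_82772*. The genes *Mycth_11658* and *Mycth_108317* are among those left out by name, and the other 3 are members with no description at hand. Their log2 differences in this order were 2.51, 3.90, 3.73, 5.06 and 5.24. All 5 were above 1000 FPKM in both libraries labelled ΔMtTrh-1.

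The genes on either side of this run differed much less. *Mycth_2064854*, with a SANT domain of DNA-binding proteins, had 188.25 and 180.39 FPKM against 130.38 and 144.28 FPKM in MtWT (log2 difference 0.42). *Mycth_108314* on the other side had 14.87 and 15.14 FPKM against 6.64 and 7.49 FPKM (0.99), which was not called. Further along, *Mycth_2306200* is again a member, with 144.91 and 153.20 FPKM against 11.16 and 10.35 FPKM (3.67), and *Mycth_52496*, next but one to it, was lower, with 36.42 and 35.04 FPKM against 103.36 and 108.73 FPKM (-1.54, called lower by limma). High and low genes thus lay within a few places of each other.

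**Figure D3:**
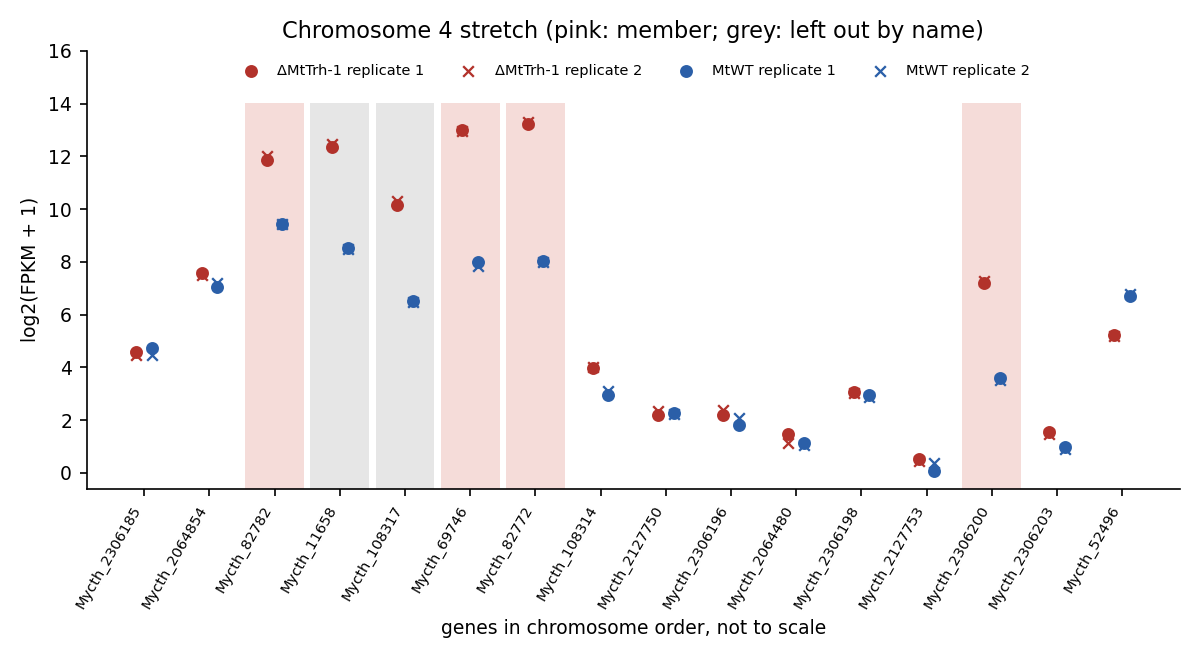
Level of 16 genes of a stretch of chromosome 4 in each library, as log2(FPKM + 1), in chromosome order and not to scale. Red marks are the libraries labelled ΔMtTrh-1, blue marks MtWT, pink bands members and grey bands genes left out by name. The 5 neighbouring bands on the left stand well apart in the strains, and the genes beside them differ by less.

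On chromosome 5, *Mycth_54712* and *Mycth_2308099* lay side by side, with *Mycth_2308103* and *Mycth_2111801* within a few places. *Mycth_54712* had 19.42 and 20.68 FPKM against 2.49 and 2.46 FPKM in MtWT, and *Mycth_2308099* had 50.49 and 52.70 FPKM against 5.20 and 4.16 FPKM. *Mycth_2308103* had 47.96 and 45.91 FPKM against 3.28 and 3.49 FPKM, and *Mycth_2111801* had 51.98 and 52.87 FPKM against 6.95 and 8.42 FPKM. All 4 were under 10 FPKM in MtWT, and 3 of them reached about the same level in the other libraries.

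Between them, *Mycth_2308106* had 55.33 and 57.74 FPKM against 21.41 and 18.65 FPKM in MtWT (log2 difference 1.45, called higher by limma), *Mycth_2308101* was under 2 FPKM in every library, and *Mycth_2119798*, described as a protein kinase, was listed at 0 in all 4. Elsewhere on this chromosome, *Mycth_2308133* had 384.01 and 363.17 FPKM against 36.39 and 37.92 FPKM (3.30), and *Mycth_2308135*, with 1 low gene between, had 179.83 and 181.58 FPKM against 31.16 and 33.10 FPKM (2.46). The gene after it, *Mycth_2308138*, missed the threshold at 1.96.

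On chromosome 1, *Mycth_59106* lay next to *Mycth_2299837*, which had 244.81 and 260.22 FPKM against 21.93 and 22.28 FPKM in MtWT (log2 difference 3.46). After them came a row of genes at low levels in every library, and then the member *Mycth_2299852*. Among the low genes between, *Mycth_2299843* had 0.26 and 0.80 FPKM against 3.89 and 4.17 FPKM and was called lower by limma. On chromosome 6, *Mycth_2310989* had 2162.48 and 2173.18 FPKM against 228.77 and 213.91 FPKM (3.29). It lay 3 places from *Mycth_2310995* (*Mthac-1*), which encodes the regulator of the unfolded protein response and moved the other way with 85.49 and 89.16 FPKM against 262.29 and 242.33 FPKM (-1.52, called lower by limma).

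**Figure D4:**
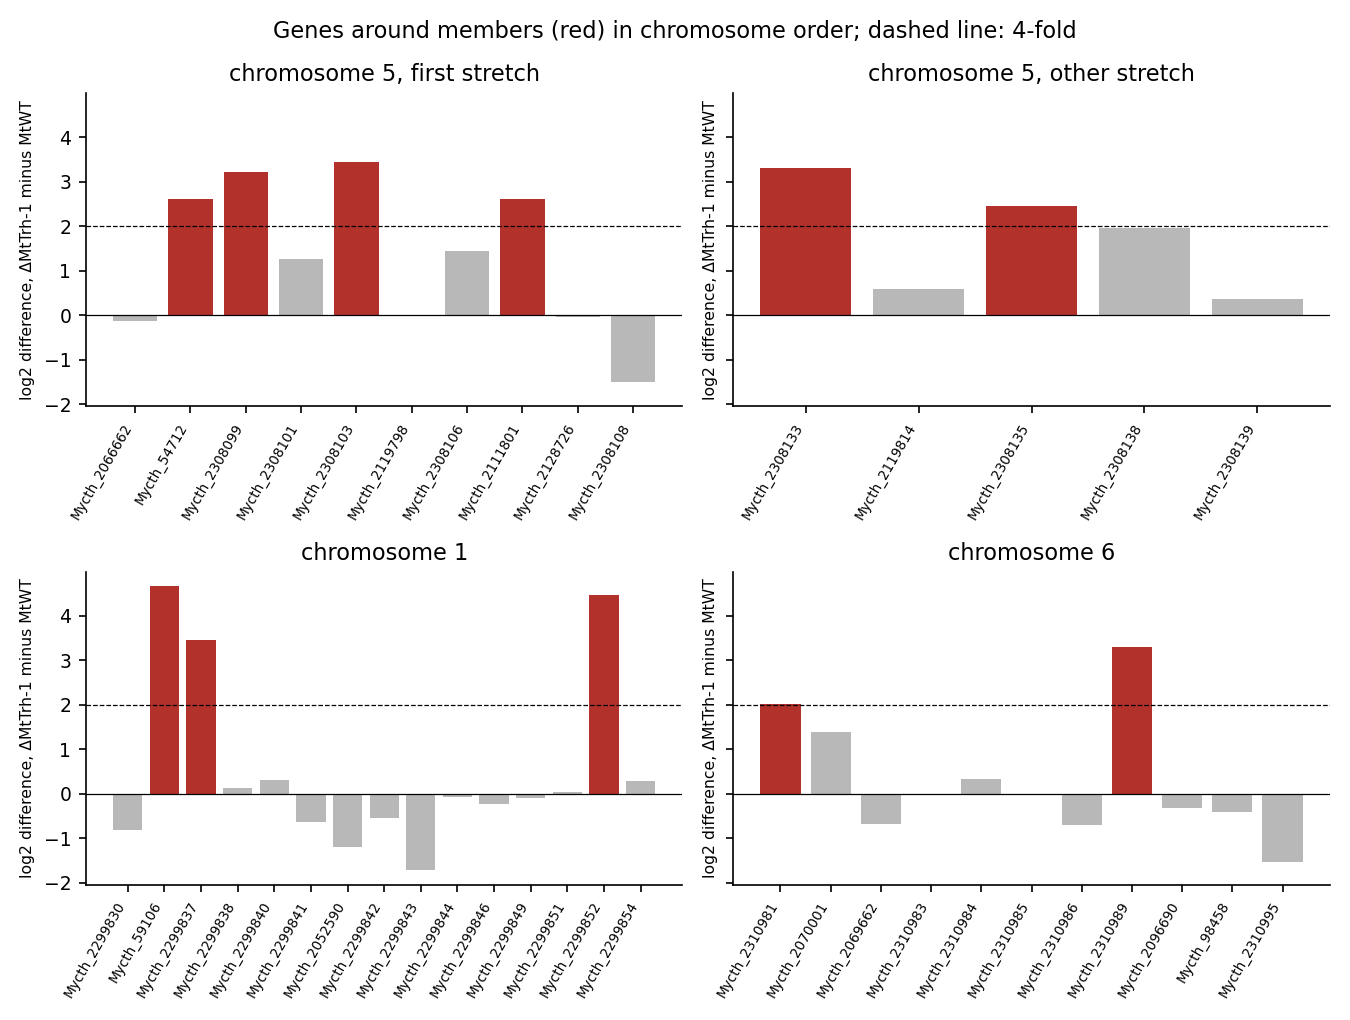
Log2 difference of strain means, ΔMtTrh-1 minus MtWT at log2(mean FPKM + 1), for the genes of 4 stretches in chromosome order and not to scale. Red bars are members, grey bars other genes, and the dashed line marks the 4-fold threshold at 2. Members lie among genes near 0, and genes below -1 lie within the stretches of chromosomes 1, 5 and 6.

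Next to the members, 100 tested genes did not meet the thresholds themselves. Of these, 12 were called higher by limma (12%, beside 5.3% of all genes tested) and 4 were called lower (4.0%, beside 4.96%). Among the 7312 other placed genes that were tested, did not meet the thresholds and lay next to no member, 4.17% were called higher and 4.99% lower. The median log2 difference was 0.13 next to members and 0.02 in the rest. None of the 12 overlaps the member beside it in the table. The difference between these shares was not tested. With 10 FPKM added the 12 became 5, beside 2.58% of all genes tested. Under a limma test against a fold of 2 they became 6, beside 3.10% of all genes tested.

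The widest differences among the 12, picked after their values were seen, were those of *Mycth_2308138*, named above, *Mycth_2313225*, with 16.20 and 16.01 FPKM against 4.74 and 3.72 FPKM in MtWT, and *Mycth_87877*, with 52.42 and 52.00 FPKM against 17.89 and 14.99 FPKM. Among the 4 that were lower, *Mycth_2305929* was listed at 0 in both libraries labelled ΔMtTrh-1 and had 13.51 and 12.04 FPKM in MtWT. *Mycth_2308118*, next to the member *Mycth_2308119*, had 32.39 and 33.59 FPKM against 83.37 and 78.90 FPKM. The member itself had 849.11 and 885.97 FPKM against 159.22 and 148.48 FPKM. In the table, 5 of the members overlap another gene (7.14%, beside 5.14% of other placed genes). They are *Mycth_2299852*, *Mycth_2312054*, *Mycth_2312740*, *Mycth_2302191* and *Mycth_66349*. The use of strand in the counting is not stated, so reads of such genes and their partners cannot be told apart.

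The members lay on all 7 chromosomes. Chromosomes 1 to 7 held 14, 13, 4, 10, 17, 8 and 4 of them. As a share of the table's genes placed there, this was 1.85% on chromosome 5, beside 0.806% over all placed genes, and 0.347% on chromosome 3, the lowest. These shares were not tested.

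Product groups were counted from words in the descriptions, in 16 lists. Of the 1118 tested genes with a description, 66 were called higher and 78 lower by limma. Described members fell into 3 of the lists. The search words of these 3 include helicase, carbonic anhydrase and phosphohydrolase, and the lists were chosen with earlier results known. Nothing is read from which lists hold members. Of 14 tested genes for DNA replication, helicases and repair, the member *Mycth_2081249* was the 1 called higher, none was lower, and the list's median log2 difference was 0.02. The list named for sugar phosphate and central carbon enzymes also takes in carbonic anhydrases. Of its 8 tested genes, 2 were called higher, the carbonic anhydrase *Mycth_111030* among them, and none lower (median 0.38). Of 4 phosphohydrolases and nucleotide enzymes, *Mycth_2069839* was the 1 called higher, and none was lower (median 0.18).

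The other lists hold no member, in part because the rule leaves genes out by name. The genes left out that meet the thresholds include 3 of the dehydrogenase list, 2 of the major facilitator list and 1 each of the lists for secondary metabolism, stress and redox defence, and CAZymes. Of 10 described genes of secondary metabolism 1 was called higher, *Mycth_108317* of the chromosome 4 run, and none lower. Of 27 described glycoside hydrolases and other CAZymes, 14 were called lower and 2 higher, with a median of -1.44. Of 36 transcription regulators 3 were called lower and none higher, and of 13 cytochrome P450 genes 3 were lower and none higher. Of 45 dehydrogenases and other NAD(P) or FAD enzymes 6 were higher and 9 lower, and of 31 major facilitator and sugar transporters 5 were higher and 5 lower. None of the 23 ribosomal protein genes was called. Other transporters (13 tested) and peptidases (12 tested) had 1 called gene in each direction. Of 18 stress and redox genes 2 were higher and none lower, as for 12 glycosyltransferases, and of 26 protein kinases 1 was higher and none lower. A single gene for conidiation, spore and surface proteins was tested, and it was not called.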

How the data were processed

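The authors deposited 1 FPKM value per gene and library (8716 genes, 4 libraries, 2 per strain). Per the labels, HISAT and Bowtie2 were used (no versions given in the submitters' processing notes), whereas the study's methods describe TopHat, HTSeq-count and DESeq2 with triplicates. The quantifier, the build and the use of strand were not given in the sources used here. Depth is unknown. Members and lists were chosen with earlier results of these data known. For calls, log2(FPKM + 1) was fitted for the 7525 genes averaging 1 FPKM or more with limma 3.58.1 (R 4.3.3; intensity trend, no covariate, Benjamini-Hochberg adjustment), with calls at adjusted p below 0.05 and log2 fold changes past 1 in size, and the fit was tested on simulated data. Such p-values measure only spread between these libraries. An exact two-sided permutation test of 2 against 2 cannot go below 0.33, so none is given. Of the table's genes, 8681 were found in RefSeq assembly ASM22609v1. Product descriptions came from the part of the study's annotation table at hand (1490 genes of the file). Named were members with a described product, the 10 with the largest differences, the 5 highest in each strain, those next to another member, and the genes nearest the thresholds; any other gene was named after its values were seen. Gene lengths and sequences were not used. Alternatives covered pseudocount, filter, scaling, variance trend, thresholds, blocking on replicate number, and single libraries left out.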

Additional observations from a re-analysis of the deposited data

How the results depend on the processing

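Log2 differences of all 70 members stayed positive under every alternative, with 1 exception: *Mycth_2309423* came to 0 without replicate 2 labelled ΔMtTrh-1. Nothing is read from these signs, since the rule chose the members by the same difference. Neither another added FPKM nor another filter can change a sign. With 0.1 FPKM added, 82 genes met the rule, among them all 70 members, and the members' median was 3.07. With 10 FPKM added 42 did, with a median of 2.11, 194 genes called higher and 181 lower, and 5 neighbours of members called higher. With libraries rescaled to a sum of 1000000 the median was 2.91. A fold of 8 left 32 members. Chosen after seeing the data, members above 0 in all libraries, and members without those directly next to another, each had a median of 2.75, and shares of total FPKM without the 5 highest members were 3.21% and 0.382%. Within 3 places of another member lay 11. At a fold beyond 4, 89 genes were called higher and 91 lower. In limma's test against a fold of 2 these were 233 and 240, with 6 neighbours called higher. Leaving out each library in turn gave 70 to 76 members, medians of 2.82 to 2.89, 6 to 8 members next to another, 384 to 410 genes higher, 367 to 389 lower and 11 to 13 neighbours higher.

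Counts of listed genes changed by a few genes. At 0.1 FPKM, transporters of the major facilitator superfamily had 8 higher, peptidases 2 lower, stress and redox genes 1 lower, CAZymes 4 higher, phosphohydrolases 1 lower and protein kinases 3 higher. At 10 FPKM, the major facilitator list had 2 higher and 3 lower, other transporters 0 in either direction, cytochrome P450 0 lower, transcription regulators 1 lower, peptidases 0 lower, CAZymes 1 higher, glycosyltransferases 1 higher, central carbon enzymes 1 higher and protein kinases 0 higher. With a mean of at least 5 FPKM required, fewer genes were tested, and the major facilitator list had 3 higher, other transporters 0 lower and cytochrome P450 1 lower. Rescaled libraries gave 2 peptidases lower and 4 CAZymes higher. Median ratio scaling and quantile normalization each gave 0 other transporters higher. Leaving out each library gave 0 to 1 other transporters higher, 1 to 2 peptidases lower and 2 to 4 CAZymes higher. The cause of these changes was not tested.

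With the replicate number as a block, 400 genes were called higher and 373 lower, 70 genes met the rule, 6 members lay next to another, and the members' median was 2.80. Over the genes tested, the deviations of libraries with the same number had a correlation of -0.02, so no shared shift by replicate number was seen. This value cannot show how the cultures were laid out. Read depth is unknown, so values near 0 FPKM have no counting interval.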

Other observations

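A further 8 genes met the fold but stayed under 10 FPKM in the libraries labelled ΔMtTrh-1. They include *Mycth_2118002*, a transporter of the major facilitator superfamily, with 4.31 and 4.73 FPKM against 0 and 0.07 FPKM in MtWT, and *Mycth_2054491*, with a Longin-like domain as in proteins of vesicle traffic, with 4.98 and 6.34 FPKM against 1.27 and 0 FPKM. *Mycth_45943* had 6.65 and 6.99 FPKM against 0 and 0.04 FPKM. These levels are low. The same contrast chose these genes, so nothing is read from the gap between the strains.

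The jump of *Mycth_2309423* between libraries of 1 strain was rare. In the whole table, 2 genes were at 0 in a library and at 10 FPKM or more in the other of the same strain. The other is *Mycth_2308197*, with 0 and 11.23 FPKM in the libraries labelled ΔMtTrh-1 and 9.46 and 3.57 FPKM in MtWT.

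The member *Mycth_2302048*, listed at 0 in both MtWT libraries, lay next to *Mycth_2302052*, which had 12.83 and 12.36 FPKM in the libraries labelled ΔMtTrh-1 and 37.64 and 41.69 FPKM in MtWT and was called lower by limma. Each of these values is given as measured.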
